A study of Sus scrofa with 6 samples.

Results

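The enzymes described here build, branch, cap and sulfate the sugar chains of mucins and other glycoproteins. They were taken by symbol, as every gene of the deposited pig table whose name begins with GALNT, GCNT, B3GNT, B3GALT, B4GALT, A4GNT, ST3GAL, ST6GAL, ST8SIA, FUT and a number, MGAT, CHST or PAPSS. These stems gave 92 of the 21911 genes listed, in 13 families. Of the 92, 53 had a mean of at least 1 FPKM over the 6 libraries and were tested, and 39 were below it. FPKM is the number of fragments per kilobase of gene, scaled to the library total. Just above that limit lay GALNT18, at a mean of 1.07 FPKM, and just below it CHST3 and GALNT16, at 0.990 and 0.981 FPKM.

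RNA was sequenced from gut tissue of pigs (Sus scrofa), 3 samples labelled SMP and 3 labelled Control. According to the design text, piglets of the treated group drank metasilicate-based alkaline water and were set against Control piglets. The sources used here give no breed, age, sex, gut segment, dose or duration. Nothing in the labels ties each sample to a separate piglet, so p-values measure only the spread between these samples, which may be technical.

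Gel-forming mucins of the gut carry dense sugar chains on serine and threonine. GALNT enzymes attach the first sugar, branching and elongating enzymes extend it, and sialic acid, fucose or sulfate ends the chain. The finished chains hold water, resist bacterial proteases and serve as food and attachment sites for microbes. The name stems reach beyond mucins: MGAT enzymes and FUT8 act on N-linked chains, B3GALT6, CHST7 and CHST15 on glycosaminoglycans, and ST3GAL5, B3GALT4 and B3GNT5 on glycolipids. In bulk tissue, fewer cells of a type and less RNA per cell cannot be told apart.

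PAPSS2, which makes the sulfate donor, rose 9.09-fold in SMP, and 6.05-fold without SMP replicate 3. ST3GAL1, which caps core 1 chains with sialic acid, rose 8.40-fold, and 5.95-fold without Control replicate 1. GALNT12, FUT2 and ST3GAL6 rose as well, by 1.85-fold to 2.82-fold, and B4GALT1 and ST6GALNAC4 fell. These are 7 of the 53 tested enzymes (13.2%), beside 5.6% of all 11471 tested genes. The 5 that rose are 9.43% of the tested enzymes, beside 3.5% of all tested genes, and the 2 that fell are 3.77%, beside 2.1%. The other 46 did not pass. Each of the 7 calls was lost in at least 3 of the 6 fits that left out 1 library. Over all tested genes these fits gave 21 to 775 higher and 20 to 527 lower, against 401 and 241 with all libraries. Of the log2 differences of the tested enzymes, 26 were positive and 27 negative, with a median of -0.03, against 0.09 for all tested genes. Their median absolute log2 difference was 0.33, against 0.27 for all tested genes. After median-ratio scaling of the libraries, the median of all tested genes was -0.01, 5 enzymes were higher and 3 lower, and the calls over all genes were 41.4% higher, against 62.5% without rescaling. In 18 of the 53 (34.0%) the SMP and Control libraries did not overlap, 9 in each direction, and 32.6% of all tested genes were separated in this way. A call here means an adjusted p of at most 0.05 in limma, with Benjamini-Hochberg adjustment over all tested genes. Each log2 difference is that of log2(FPKM + 1), SMP minus Control, and so understates changes at low levels, while levels and folds are of FPKM.

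**Figure D1:**
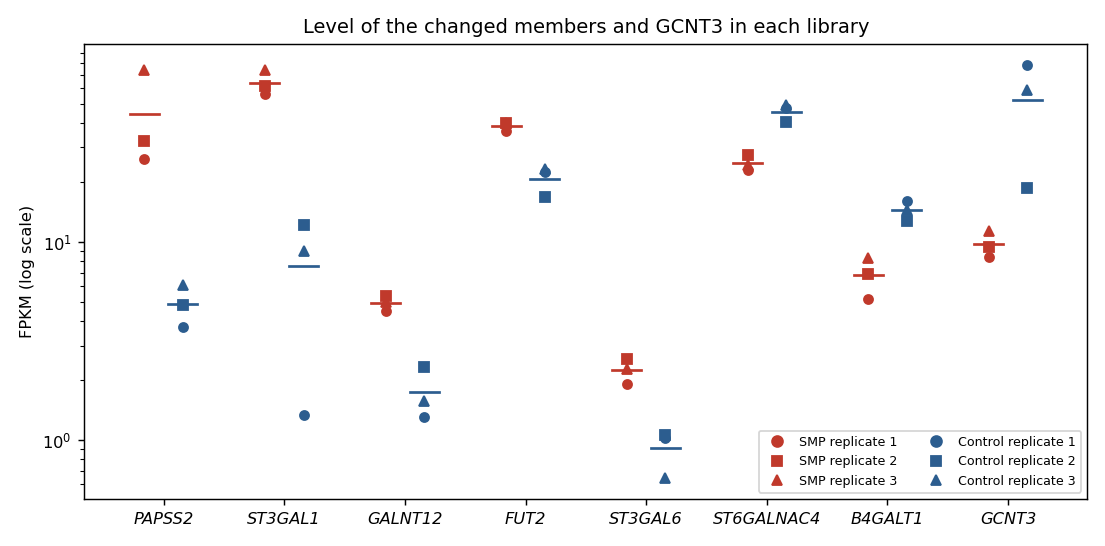
Level in FPKM (log scale) of the 7 enzymes that passed and of GCNT3 in each of the 3 SMP libraries (red, left) and the 3 Control libraries (blue, right), with a bar at the mean of each group. The groups did not overlap in any of the 8 genes, and ST3GAL1 and GCNT3 varied most among the Control libraries.

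Some libraries stood apart from others of their group. SMP replicates 1 and 2 correlated at 0.990 across genes, while SMP replicate 3 correlated with them at 0.951 and 0.963. Control replicates 1 and 3 correlated at 0.977, and Control replicate 2 was closest to SMP replicate 2, at 0.947. Library totals were 16816165 to 20712701 fragments in SMP and 15927028 to 18636198 in Control, at which 3 fragments in a gene of 2000 bases equal 0.0724 to 0.0942 FPKM. The Y-linked gene EIF1AY was at 23.9 to 29.6 FPKM in SMP and at 0 to 0.187 FPKM in Control, so sex and treatment cannot be told apart in any result below. Of 9 tested markers of the proximal small intestine, 3 fell and 0 rose in limma (7 at an unadjusted p of at most 0.05). All 9 log2 differences were negative, with a median of -1.61. The summed levels of these markers were 166 to 239 FPKM in SMP and 341 to 770 FPKM in Control. Of 6 tested markers of the large intestine, 4 rose (SLC26A3, OTOP2, CA4 and BEST4) and 1 fell (AQP8). Their summed levels were 313 to 345 FPKM in SMP and 349 to 407 FPKM in Control. The lower sum in SMP came from AQP8, which averaged 23.3 FPKM in SMP and 153 FPKM in Control. None of the matched markers in either list was at 0 in any library, but 2 proximal markers were hardly read in SMP. MLN had 2, 1 and 1 fragments in SMP and 267, 58 and 241 in Control. SCT had 3, 6 and 3 fragments in SMP and 274, 45 and 234 in Control. The part of gut segment in the results below was not tested.

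Summed by family, PAPSS and ST3GAL were 4.89-fold and 4.88-fold higher in SMP on average, and GCNT was 4.36-fold lower. The ST3GAL family summed to 61.4, 68.9 and 81.1 FPKM in SMP replicates 1, 2 and 3, against 8.39, 20.2 and 14.7 FPKM in Control replicates 1, 2 and 3. The PAPSS pair summed to 32.4, 38.3 and 80.8 FPKM in SMP and to 8.66, 10.6 and 11.7 FPKM in Control. Both sums were higher in every SMP library than in any Control library. The GALNT and FUT sums were also higher in every SMP library, at 84.8 to 91.2 FPKM in SMP against 64.4 to 73.4 FPKM in Control for GALNT, and at 84.9 to 90.2 FPKM in SMP against 66.1 to 81.5 FPKM in Control for FUT. Sums of GCNT, B4GALT and ST6GAL enzymes were lower in every SMP library. The ST6GAL sum includes the ST6GALNAC genes. ST6GALNAC4 alone held 58.9% to 66.6% of it in SMP and 73.4% to 80.6% in Control. The MGAT family, the most abundant, summed to 158.4 ± 20.3 FPKM in SMP and 157.8 ± 11.9 FPKM in Control (SD, n = 3 each). Its sums overlapped between groups, as did those of B3GNT, B3GALT, A4GNT, ST8SIA and CHST. With median-ratio scaling the FUT sums overlapped and the B3GNT sums were lower in every SMP library. Family sums are descriptions and were not tested.

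**Figure D2:**
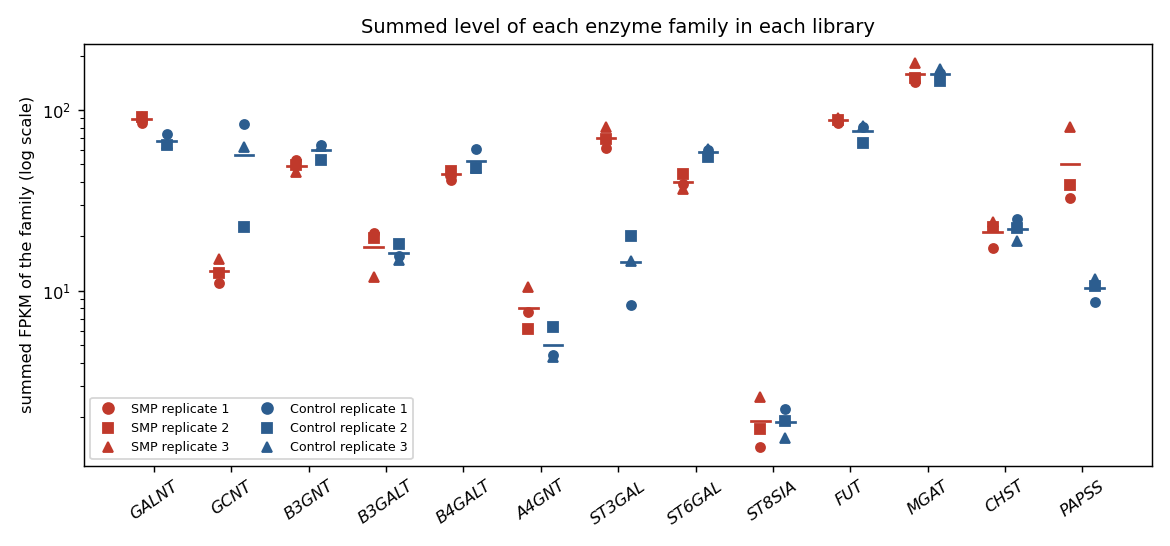
Summed FPKM (log scale) of all members of each family in the 3 SMP libraries (red, left) and the 3 Control libraries (blue, right), with bars at the group means. ST3GAL and PAPSS sums lie well above Control in SMP and the GCNT sum lies below, while MGAT sums, at 143.7 to 181.6 FPKM in SMP and 144.7 to 168.0 FPKM in Control, overlap.

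GALNT enzymes start the chain by placing N-acetylgalactosamine on the protein, each with its own choice of sites. GALNT12 (ENSSSCG00000005379), a member known from the digestive tract, was at 4.48, 5.32 and 4.97 FPKM in SMP and at 1.32, 2.34 and 1.57 FPKM in Control. All SMP libraries lay above all Control libraries, and the means were 4.92 ± 0.421 FPKM in SMP and 1.74 ± 0.533 FPKM in Control. It rose 2.82-fold (log2 difference 1.13, SE 0.17, adjusted p = 0.0222). GALNT12 made up 5.29% to 5.84% of the family's summed FPKM in SMP and 1.79% to 3.63% in Control.

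GALNT2, a broadly expressed member with the highest mean level of the family, was at 18.2, 18.6 and 14.0 FPKM in SMP and at 14.9, 17.2 and 12.8 FPKM in Control. The groups overlapped, and the log2 difference was 0.16 (SE 0.17, adjusted p = 0.592). GALNT7, which prefers peptides that already carry a sugar, averaged 15.2 ± 0.868 FPKM in SMP and 10.3 ± 1.97 FPKM in Control (adjusted p = 0.102). GALNT3 averaged 11.2 ± 2.03 FPKM in SMP and 6.81 ± 2.15 FPKM in Control (adjusted p = 0.139). Neither passed, although neither overlapped between groups. Of the 10 tested GALNT genes 7 had a positive log2 difference, and the family's range was -0.23 to 1.13.

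GCNT enzymes add the branches that make core 2 and core 4 chains. GCNT3 (ENSSSCG00000004584), the form typical of mucus-secreting tissue, was at 8.40, 9.43 and 11.3 FPKM in SMP and at 78.5, 18.7 and 58.2 FPKM in Control. The groups did not overlap, and Control replicate 2 lay nearest to SMP. Means were 9.71 ± 1.47 FPKM in SMP and 51.8 ± 30.4 FPKM in Control, 5.33-fold lower in SMP (log2 difference -2.09, 95% interval -3.24 to -0.93). It missed the threshold (adjusted p = 0.0571). Of the 6 fits that left out 1 library it passed in 1, without Control replicate 2 (adjusted p = 0.00431). In the others its adjusted p was 0.0840 to 0.193, and with no filter on low values it was 0.118. It also passed with median-ratio scaling (adjusted p = 0.0489), with quantile normalization and in voom. In a fit that took the replicate number as a block its adjusted p was 0.0499. GCNT4 averaged 0.870 ± 0.0943 FPKM in SMP and 1.44 ± 0.214 FPKM in Control (adjusted p = 0.154), and GCNT1 had a log2 difference of -0.17 (adjusted p = 0.638).

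B3GNT enzymes lengthen chains with N-acetylglucosamine. B3GNT8, which can extend poly-N-acetyllactosamine, was the most abundant, at 33.0, 31.0 and 22.7 FPKM in SMP and at 38.4, 33.2 and 40.3 FPKM in Control. Every SMP library lay below every Control library, but the gene did not pass (log2 difference -0.37, SE 0.18, adjusted p = 0.256). In each of the 3 scalings run, all 6 tested B3GNT genes had negative log2 differences. Without rescaling they ran from -0.37 to -0.03. In limma 0 passed, with 0 at an unadjusted p of at most 0.05, and voom called 0. B3GNT3, which elongates core 1 chains, had a log2 difference of -0.10 (adjusted p = 0.714). B3GNT6, the enzyme of the core 3 chains of colonic mucin, was hardly read, with 4, 5 and 0 fragments in SMP and 3, 0 and 0 in Control.

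Galactose is then added by the B3GALT and B4GALT enzymes. B4GALT1 (ENSSSCG00000035454), which adds galactose to terminal N-acetylglucosamine, was at 5.18, 6.93 and 8.33 FPKM in SMP and at 16.2, 12.8 and 14.5 FPKM in Control. The groups were clearly separated, with means of 6.82 ± 1.58 FPKM in SMP and 14.5 ± 1.72 FPKM in Control. It fell 2.12-fold (log2 difference -0.999, SE 0.19, adjusted p = 0.0336). Its share of the B4GALT sum was 12.6% to 18.5% in SMP and 26.5% to 30.4% in Control. B4GALT3, the highest of the family on average, was at 13.0, 14.0 and 10.1 FPKM in SMP and at 20.7, 11.9 and 16.2 FPKM in Control. Its groups overlapped (log2 difference -0.35, SE 0.23, adjusted p = 0.383). B4GALT2 and B4GALT5 had positive log2 differences of 0.18 and 0.39, and neither passed (adjusted p = 0.680 and 0.445).

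B3GALT6, an enzyme of the glycosaminoglycan linker, was at 16.5, 15.2 and 8.93 FPKM in SMP and at 10.8, 12.9 and 9.16 FPKM in Control. SMP replicate 3 lay below every Control library and the other SMP libraries above (adjusted p = 0.557). B3GALT4, a ganglioside enzyme, was at 3.86, 3.73 and 2.70 FPKM in SMP and at 4.76, 4.91 and 5.60 FPKM in Control. The groups did not overlap, but it did not pass (log2 difference -0.47, SE 0.15, adjusted p = 0.119). A4GNT, which ends chains of gastric-type gland mucin with alpha-linked N-acetylglucosamine, was at 7.65, 6.14 and 10.5 FPKM in SMP and at 4.41, 6.31 and 4.31 FPKM in Control. SMP replicate 2 lay below Control replicate 2, and the gene did not pass (log2 difference 0.58, SE 0.22, adjusted p = 0.155).

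Among the sialyltransferases, members moved in opposite directions. ST3GAL1 (ENSSSCG00000005943), which caps the galactose of core 1 chains with sialic acid, was at 55.6, 61.0 and 73.6 FPKM in SMP and at 1.34, 12.3 and 9.04 FPKM in Control. The lowest SMP library was far above the highest Control library, and Control replicate 1 lay well below the other Control libraries. Means were 63.4 ± 9.24 FPKM in SMP and 7.54 ± 5.61 FPKM in Control. It rose 8.40-fold (log2 difference 3.24, SE 0.61, 95% interval 1.80 to 4.68, adjusted p = 0.0335). Without Control replicate 1 the rise was 5.95-fold and the log2 difference 2.47, below the 2.68 of PAPSS2 in that fit. ST3GAL1 held 88.7% to 90.8% of the ST3GAL sum in SMP, against 15.9%, 60.6% and 61.6% in Control replicates 1, 2 and 3.

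ST3GAL6 (ENSSSCG00000034493), which caps N-acetyllactosamine ends, was at 1.92, 2.56 and 2.29 FPKM in SMP and at 1.03, 1.06 and 0.642 FPKM in Control. No SMP library overlapped Control, and it rose 2.48-fold at a low level (log2 difference 0.77, SE 0.16, adjusted p = 0.0433). With a pseudocount of 0.1 in place of 1 its adjusted p was 0.0520. ST3GAL5, which makes the ganglioside GM3, averaged 2.18 ± 0.447 FPKM in SMP and 3.29 ± 0.632 FPKM in Control (adjusted p = 0.175). ST3GAL3 had a log2 difference of 0.03 (adjusted p = 0.963), which turned negative with median-ratio scaling and with quantile normalization.

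ST6GALNAC4 (ENSSSCG00000005628), which adds a further sialic acid to the N-acetylgalactosamine of sialylated core 1 chains, was at 23.0, 27.6 and 24.5 FPKM in SMP and at 47.3, 40.4 and 49.0 FPKM in Control. The groups did not overlap, with means of 25.0 ± 2.34 FPKM in SMP and 45.6 ± 4.53 FPKM in Control. It fell, being 1.82-fold lower in SMP (log2 difference -0.84, SE 0.15, adjusted p = 0.0292). ST6GALNAC1, the sialyl-Tn enzyme of goblet cells, averaged 6.54 ± 0.918 FPKM in SMP and 4.62 ± 1.59 FPKM in Control (adjusted p = 0.273). ST6GAL1, which sialylates N-linked chains, had a log2 difference of -0.04 (adjusted p = 0.944). ST8SIA4, a polysialyltransferase and the only tested member of its family, was at 0.951, 1.18 and 1.86 FPKM in SMP and at 1.63, 1.23 and 1.24 FPKM in Control. Its groups overlapped throughout (log2 difference -0.04, SE 0.19, adjusted p = 0.918).

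FUT2 (ENSSSCG00000003145), the secretor enzyme that makes the H antigen on mucin chains, was at 36.5, 39.6 and 39.8 FPKM in SMP and at 22.5, 16.8 and 23.4 FPKM in Control. The SMP libraries agreed closely and lay above all Control libraries, with means of 38.7 ± 1.88 FPKM in SMP and 20.9 ± 3.54 FPKM in Control. It rose 1.85-fold (log2 difference 0.87, SE 0.16, adjusted p = 0.0337). In RefSeq's pig gene order (Sscrofa11.1) FUT2 has a neighbour named FUT2A, which was not analysed here. No source used here says how fragments shared by copies were counted, and the value of FUT2 is uncertain to that extent. FUT1, which makes the same antigen on other chains, averaged 12.8 ± 1.42 FPKM in SMP and 16.4 ± 1.60 FPKM in Control, without overlap and without passing (log2 difference -0.34, 95% interval -0.68 to 0.01, adjusted p = 0.204). FUT8, which places core fucose on N-linked chains, averaged 27.5 ± 2.42 FPKM in SMP and 31.8 ± 6.03 FPKM in Control (adjusted p = 0.555).

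MGAT enzymes build the branches of N-linked chains rather than mucin chains. In limma 0 of 6 passed, with 1 at an unadjusted p of at most 0.05, and voom on the recovered fragments called 0. MGAT4B, with the highest mean level of the 92 genes over the 6 libraries, was at 37.1, 38.0 and 38.4 FPKM in SMP and at 45.2, 37.1 and 45.0 FPKM in Control. Control replicate 2 lay at the SMP level (log2 difference -0.16, SE 0.14, adjusted p = 0.527). MGAT3, which adds the bisecting sugar, was at 12.2, 13.6 and 10.2 FPKM in SMP and at 18.8, 13.4 and 17.9 FPKM in Control. Here too the overlap came through Control replicate 2 (log2 difference -0.44, SE 0.18, adjusted p = 0.183). Log2 differences in the family ran from -0.44 to 0.36.

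**Figure D3:**
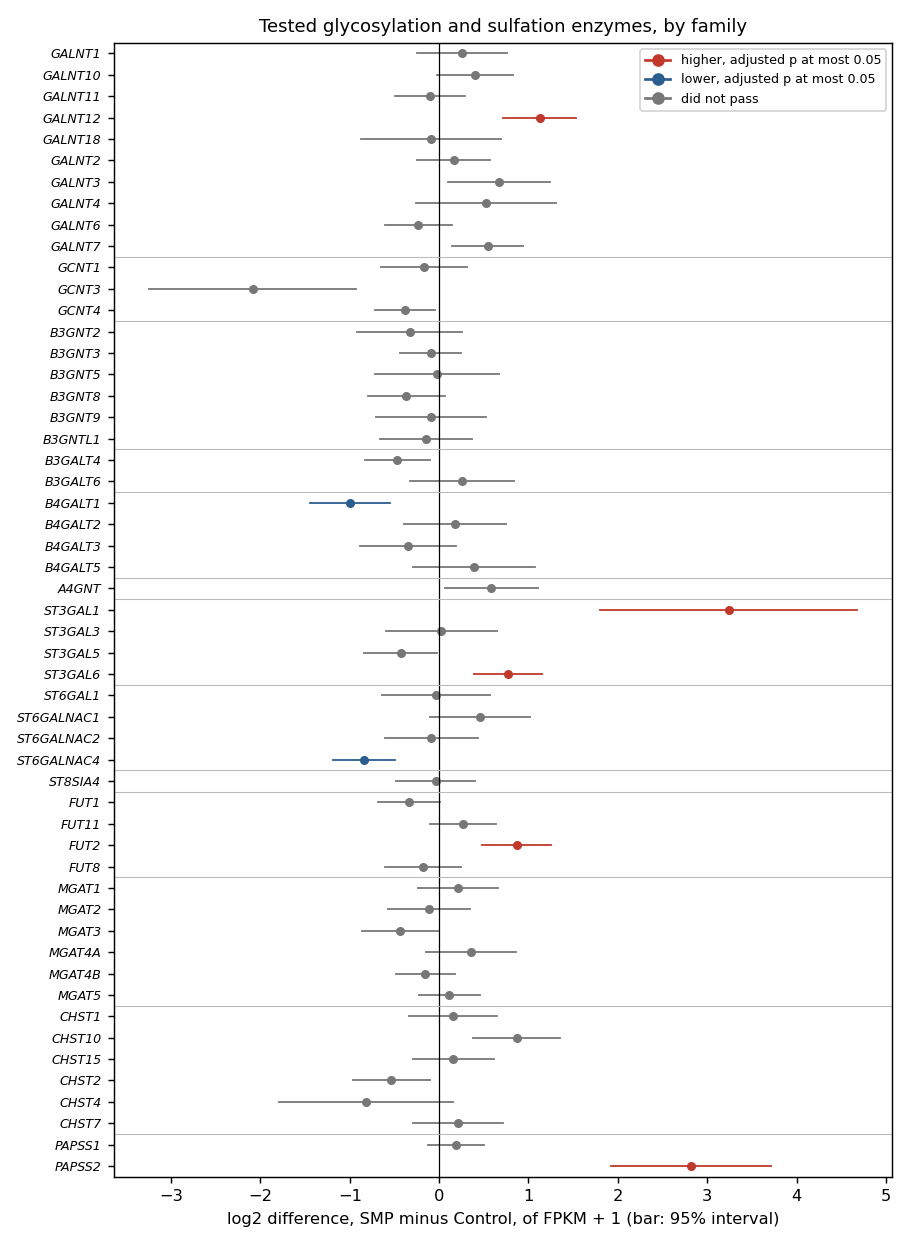
Log2 difference, SMP minus Control, of FPKM + 1 for each of the 53 tested enzymes, grouped by family, with 95% intervals from limma. The 5 genes in red rose, the 2 in blue fell, and the 46 in grey did not pass; ST3GAL1 (3.24) and PAPSS2 (2.82) lie farthest to the right and GCNT3 (-2.09) farthest to the left.

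Sulfation needs the donor PAPS, which the PAPSS enzymes make, and CHST sulfotransferases that pass the sulfate on. PAPSS2 (ENSSSCG00000010437) was at 26.4, 32.3 and 73.8 FPKM in SMP and at 3.72, 4.80 and 6.05 FPKM in Control. Every SMP library was far above every Control library, and SMP replicate 3 was the highest. Means were 44.2 ± 25.8 FPKM in SMP and 4.85 ± 1.16 FPKM in Control. It rose 9.09-fold (log2 difference 2.82, SE 0.38, 95% interval 1.93 to 3.72, adjusted p = 0.0173). Without SMP replicate 3 the rise was 6.05-fold and the log2 difference 2.39, below the 3.13 of ST3GAL1 in that fit. PAPSS1, the other enzyme of this step, averaged 6.37 ± 0.572 FPKM in SMP and 5.47 ± 0.475 FPKM in Control, with a log2 difference of 0.19 (95% interval -0.12 to 0.50, adjusted p = 0.423). PAPSS2 held 81.3% to 91.3% of the pair's sum in SMP and 43.0% to 51.7% in Control.

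In limma 0 of the 6 tested CHST genes passed, with 2 at an unadjusted p of at most 0.05, and voom called 0. CHST10, which sulfates glucuronic acid in the HNK-1 epitope, came nearest, at 3.35, 3.98 and 4.32 FPKM in SMP and at 1.34, 2.54 and 1.29 FPKM in Control. Its groups did not overlap (log2 difference 0.87, SE 0.20, adjusted p = 0.0581). Of the 6 fits that left out 1 library it passed in 1, without Control replicate 2 (adjusted p = 0.0205). CHST2, a sulfotransferase for N-acetylglucosamine and the highest of the family on average, was at 2.25, 4.08 and 3.16 FPKM in SMP and at 4.86, 5.17 and 4.77 FPKM in Control. Every SMP library lay below Control, but the gene did not pass (log2 difference -0.53, SE 0.18, adjusted p = 0.126). CHST4, which acts on the same sugar, had a log2 difference of -0.82 with overlapping groups (adjusted p = 0.264). The summed level of the 12 CHST genes was 17.3 to 24.0 FPKM in SMP and 18.8 to 25.0 FPKM in Control.

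Ratios within a library do not change when each library is divided by a size factor, though quantile normalization can change them. The 3 ratios below were chosen after their values were seen. An exact permutation test of the library labels gave p = 0.1 for each. That is the smallest p possible with 3 libraries a group, so the test cannot decide. PAPSS2 over PAPSS1 was 4.34, 5.39 and 10.5 in SMP and 0.753, 0.821 and 1.07 in Control. FUT2 over FUT1 was 2.64, 2.96 and 3.57 in SMP and 1.51, 1.03 and 1.29 in Control. ST3GAL1 over GCNT3, a cap on core 1 over a branch on it, was 6.61, 6.47 and 6.51 in SMP and 0.0170, 0.656 and 0.155 in Control. The SMP libraries lay close together in this last ratio, and the Control libraries were spread widely on the other side of 1.

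**Figure D4:**
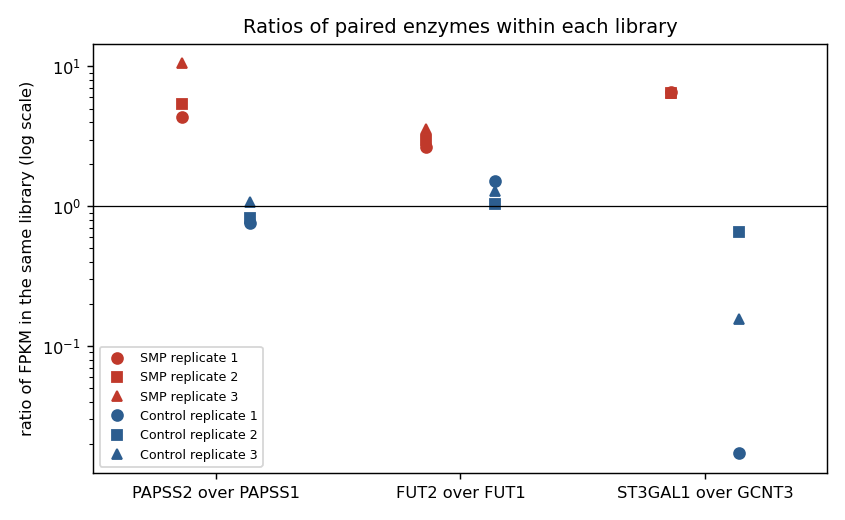
Ratio of FPKM (log scale) of PAPSS2 over PAPSS1, FUT2 over FUT1 and ST3GAL1 over GCNT3 within each SMP library (red, left) and each Control library (blue, right), with a line at 1. All SMP ratios lie above all Control ratios, and ST3GAL1 over GCNT3 is 6.47 to 6.61 in SMP and 0.0170 to 0.656 in Control.

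The 39 enzymes below a mean of 1 FPKM were not tested. They were GALNT5, GALNT8, GALNT9, GALNT13, GALNT14, GALNT15, GALNT16, GALNT17, GALNTL5, GALNTL6, GCNT7, B3GNT4, B3GNT6, B3GNT7, B3GALT1, B3GALT2, B4GALT4, B4GALT6, B4GALT7, ST3GAL4, ST6GAL2, ST6GALNAC3, ST6GALNAC5, ST8SIA1, ST8SIA2, ST8SIA3, ST8SIA5, ST8SIA6, FUT7, FUT10, MGAT4C, MGAT4D, MGAT5B, CHST3, CHST8, CHST9, CHST11, CHST13 and CHST14. In 12 of them no library had more than 10 fragments. FUT7, the selectin ligand enzyme of leukocytes, was among those 12.

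The donors of these enzymes were followed in a list of 34 genes for sugar nucleotides, PAPS and their transport, of which 30 were tested. Of these, 4 rose, 2 fell and 24 did not pass, with 19 positive and 11 negative log2 differences and a median of 0.05, against 0.09 for all tested genes. With median-ratio scaling the split was 13 and 17 and the median -0.05. GNE (ENSSSCG00000037468), the first enzyme of sialic acid synthesis, was at 7.79, 7.90 and 7.88 FPKM in SMP and at 2.58, 2.63 and 2.48 FPKM in Control. Replicates differed very little and the groups were far apart, with a 3.07-fold rise (log2 difference 1.31, SE 0.11, adjusted p = 0.00463). Its call held without each single library in turn, with adjusted p-values up to 0.0395. The later steps of sialic acid supply, NANS, CMAS and the Golgi carrier SLC35A1, chosen after their values were seen, did not pass (adjusted p = 0.523, 0.579 and 0.248).

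GNPNAT1, which acetylates glucosamine phosphate on the way to N-acetylglucosamine, was at 5.25, 4.79 and 4.87 FPKM in SMP and at 2.55, 2.12 and 2.60 FPKM in Control (log2 difference 0.80, adjusted p = 0.0234). FPGT, an enzyme of fucose salvage, was at 4.09, 4.03 and 3.20 FPKM in SMP and at 1.18, 1.56 and 0.626 FPKM in Control (log2 difference 1.19, adjusted p = 0.0253). SLC35B4, a nucleotide sugar transporter, was at 5.60, 6.04 and 5.08 FPKM in SMP and at 3.08, 3.22 and 3.04 FPKM in Control (log2 difference 0.68, adjusted p = 0.0313). In these 3 genes all SMP libraries lay above all Control libraries. The genes that fell were both of galactose use. GALT was at 28.7, 22.8 and 21.2 FPKM in SMP and at 41.3, 50.7 and 50.0 FPKM in Control (log2 difference -0.94, adjusted p = 0.0310). GALK1 was at 48.3, 41.5 and 51.1 FPKM in SMP and at 74.5, 70.9 and 82.3 FPKM in Control (log2 difference -0.68, adjusted p = 0.0468), and did not pass with quantile normalization. The sulfate carrier SLC26A2 did not pass, at 2.33, 2.21 and 5.09 FPKM in SMP and at 1.62, 1.01 and 0.682 FPKM in Control (adjusted p = 0.0997). It too was chosen with its values in view.

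**Figure D5:**
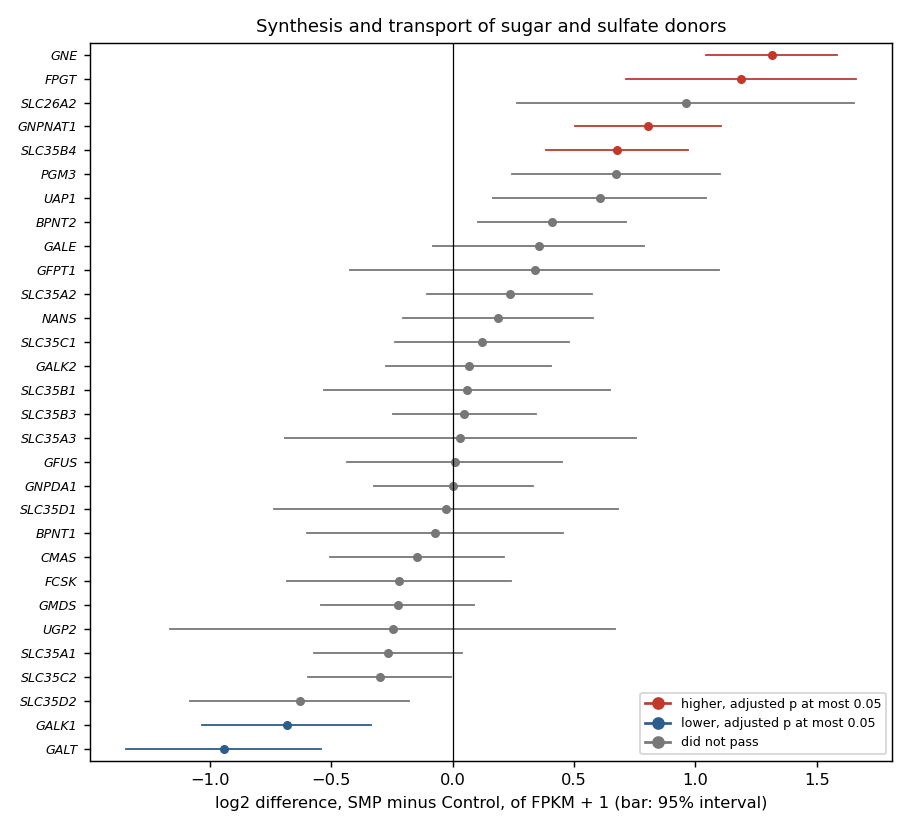
Log2 difference, SMP minus Control, of FPKM + 1 for the 30 tested genes of donor synthesis and transport, ordered by size, with 95% intervals from limma. GNE (1.31), FPGT (1.19), GNPNAT1 (0.80) and SLC35B4 (0.68) rose, GALK1 (-0.68) and GALT (-0.94) fell, and the other 24 did not pass.

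A list of 30 other glycan genes, covering further transferases and the enzymes that remove sialic acid, sulfate and sugars, had 17 tested members. Of these 1 rose and 2 fell, and 15 of the 17 log2 differences were negative, with a median of -0.27 against 0.09 for all tested genes. B3GALNT2, which acts on dystroglycan chains, rose, at 4.33, 3.92 and 3.44 FPKM in SMP and at 2.25, 2.09 and 2.32 FPKM in Control (log2 difference 0.60, adjusted p = 0.0485). It did not pass with median-ratio scaling or with quantile normalization. The lysosomal sulfatase ARSA fell, at 13.2, 13.2 and 13.7 FPKM in SMP and at 30.7, 21.3 and 28.4 FPKM in Control (log2 difference -0.94, adjusted p = 0.0300). The core 1 enzyme C1GALT1 and its chaperone C1GALT1C1 could not be matched by symbol and were not analysed here.

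Of the acceptor mucins, 0 passed in limma, 0 had an unadjusted p of at most 0.05, and voom called 0. MUC2, the main gel-forming mucin of the intestine, was at 42.0, 47.0 and 19.5 FPKM in SMP and at 37.6, 38.5 and 35.9 FPKM in Control (adjusted p = 0.819). MUC13, a membrane mucin, was at 63.2, 75.5 and 167 FPKM in SMP and at 182, 18.1 and 117 FPKM in Control (adjusted p = 0.834). These were the 2 tested genes of a list of 14 mucins, of which 4 had an identifier. Goblet cell markers were summed beside the enzymes: 0 of 9 tested passed in limma (4 at an unadjusted p of at most 0.05, 0 by voom). Their sum was 1421, 1691 and 628 FPKM in SMP replicates 1, 2 and 3, and 2295 to 2661 FPKM in Control. The lower sum in SMP came from TFF3, at 883 ± 425 FPKM in SMP and 2012 ± 136 FPKM in Control, and SPINK4, at 206 ± 74.6 FPKM in SMP and 360.4 ± 54.2 FPKM in Control (SD, n = 3 each). The 9 goblet markers did not share a direction, with 5 positive and 4 negative log2 differences and a median of 0.09. Each of the 9 was at its lowest among the SMP libraries in SMP replicate 3. AGR2 was at 50.5 ± 11.8 FPKM in SMP and 32.9 ± 1.14 FPKM in Control, without overlap. The goblet marker KLK1 was at 0 in SMP replicate 3 and Control replicate 1. The 10 enterocyte markers, none of which was at 0, had 0 calls in limma (2 at an unadjusted p of at most 0.05, 1 by voom) and summed to 6094 to 7847 FPKM in SMP and 4403 to 5829 FPKM in Control. Of 14 tested leukocyte markers 3 fell in limma (10 at an unadjusted p of at most 0.05, 4 by voom). All 14 log2 differences were negative, with a median of -0.75. The leukocyte sum was 161 to 209 FPKM in SMP and 365 to 542 FPKM in Control. The sums of goblet, enterocyte and leukocyte markers did not overlap between groups, and their part in the enzyme results was not tested. Smooth muscle markers summed to 1601 to 2184 FPKM in SMP and to 998, 2793 and 171 FPKM in Control replicates 1, 2 and 3. Those of endothelium and stroma summed to 450 to 806 FPKM in SMP and 179 to 689 FPKM in Control. In each of these 2 lists 0 of 9 passed in limma, 0 had an unadjusted p of at most 0.05, voom called 0, and no member was at 0. All 9 log2 differences of smooth muscle markers were positive, with a median of 1.08. For endothelium and stroma 8 were positive and 1 negative, with a median of 0.13.

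How far the calls rest on single libraries was checked by leaving out each in turn. None of the 7 enzyme calls held in all 6 such fits. Most calls over all tested genes were lost in some of them as well. There, 401 higher and 241 lower became 21 and 25 without SMP replicate 2, and 27 and 20 without Control replicate 3. GALNT12, FUT2, ST6GALNAC4 and B4GALT1 missed the threshold without SMP replicate 1, SMP replicate 2, Control replicate 1 or Control replicate 3. Their adjusted p-values there were 0.0998, 0.126, 0.0585 and 0.108 for GALNT12, 0.137, 0.158, 0.0741 and 0.116 for FUT2, 0.144, 0.128, 0.0793 and 0.135 for ST6GALNAC4, and 0.133, 0.144, 0.0901 and 0.135 for B4GALT1. ST3GAL6 missed it without the same 4 or without SMP replicate 3 (0.136, 0.188, 0.0855, 0.159 and 0.0612). ST3GAL1 missed it without any SMP replicate (0.126, 0.133 and 0.0651) or without Control replicate 3 (0.109). PAPSS2 missed it without SMP replicate 2 (0.0651), Control replicate 1 (0.0543) or Control replicate 3 (0.0710). With no filter on low values, PAPSS2 and ST6GALNAC4 kept their calls (both 0.0467), and the other 5 missed the threshold (0.0535 to 0.0876). Of the donor and other glycan genes, GNE kept its call in all 6 fits. GNPNAT1, FPGT, SLC35B4, GALT, GALK1 and ARSA missed the threshold without SMP replicate 1, SMP replicate 2, Control replicate 1 or Control replicate 3, with adjusted p-values from 0.0590 for GNPNAT1 to 0.206 for GALK1. B3GALNT2 passed in 1 of the 6, without SMP replicate 3 (0.0356).

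All 7 calls held when the libraries that stood apart, SMP replicate 3 and Control replicate 2, were both left out, with adjusted p-values of 0.00703 for PAPSS2, 0.00911 for GALNT12, 0.0116 for B4GALT1, 0.0117 for ST6GALNAC4, 0.0121 for FUT2, 0.0241 for ST3GAL1 and 0.0366 for ST3GAL6. These 2 libraries were picked from the same data because they stood apart, so leaving them out narrows the spread within groups. Over all tested genes, 401 higher and 241 lower became 1804 and 1230 there. The kept calls are therefore no support for the 7 enzymes. In that fit 9 enzymes were higher (17.0%), beside 15.7% of all tested genes, and 8 were lower (15.1%), beside 10.7%. The further enzymes higher there were A4GNT, B3GALT6, CHST10 and GALNT10. Those lower were GCNT3, MGAT3, FUT8, B3GNT2, B3GNT5 and CHST4, besides the 2 named before.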

How the data were processed

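The authors deposited 1 FPKM value per gene and sample for 21911 pig Ensembl identifiers in gut RNA of 3 SMP and 3 Control samples, grouped by the treatment in the labels. The submitters' processing notes name DESeq2 1.16.1, StringTie and HISAT2 2.0.5 without saying what each did, and mm10, a mouse build, so no coordinates are printed. Per the labels' protocols the library kit was NEBNext Ultra; the sources used here do not say how strand or shared reads were handled. Symbols from a gene name table matched 14153 identifiers; 9974 of the 11471 tested genes had one.

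The main test was limma 3.58.1 (R 4.3.3) with an empirical Bayes trend on log2(FPKM + 1), treatment only, for genes averaging 1 FPKM or more, with Benjamini-Hochberg adjustment at 0.05. A count test was planned for raw counts and, the values being FPKM, was not the main test. Whole numbers could be recovered from the FPKM steps for all 21911 genes (tolerance 1e-07); they are called fragments here, although they may be reads, and voom on them was an alternative. Precision is set by the spread between libraries, and intervals cover that spread only. The steps were tested on simulated data.

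The members, the gene lists and the alternatives were chosen with earlier results of these data known. Library values are given for each enzyme that passed and, in each family, for the one with the highest mean and the one with the smallest p; of the donor, other glycan and mucin lists, genes that passed and the 2 with the smallest p are named, except 1 gene of the other glycan list that is not reported here. Genes named outside this rule include GALNT3, GALNT7, GCNT1, GCNT4, B3GNT3, B4GALT2, B4GALT5, ST3GAL3, ST3GAL5, ST6GAL1, ST6GALNAC1, FUT1, FUT8, CHST4 and PAPSS1, given by mean or difference, GALNT18, GALNT16 and CHST3 at the limit of 1 FPKM, B3GNT6 by its fragments, the further enzymes called without 2 libraries, single markers, and those said in the text to be chosen after their values were seen. Same-numbered libraries were checked for pairing and not treated as pairs.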

Additional observations from a re-analysis of the deposited data

How the results depend on the processing

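The 5 enzymes higher and 2 lower in SMP became 1 and 1 with no filter on low values, 3 and 1 in a fit that took the replicate number as a block, 3 and 0 with an absolute log2 difference of at least 1 required, and 9 and 8 without both Control replicate 2 and SMP replicate 3. With a mean of at least 5 FPKM, 3 were higher: PAPSS2, ST3GAL1 and FUT2 kept their calls. GALNT12 and ST3GAL6, at means of 3.33 and 1.58 FPKM, were below that limit and not tested there. Leaving out 1 library gave 0 to 6 higher and 0 to 3 lower. Quantile normalization, median-ratio scaling, voom on the recovered numbers and pseudocounts of 0.1 and 0.5 stayed within 1.5 times. The log2 difference of ST8SIA4 ran from -0.20 to 0.080 over the fits without 1 library and changed sign, and was -0.24 without both libraries. Over all genes, 401 higher and 241 lower became 158 and 100 with no filter, 115 and 121 with the block, 299 and 423 with median-ratio scaling, 141 and 135 with the added threshold, and 1804 and 1230 without the 2 libraries. A mean of at least 5 FPKM gave 241 higher and 200 lower over all genes, and leaving out 1 library gave 21 to 775 higher and 20 to 527 lower. The cause of these moves was not tested. Some of the settings also change the number of genes or libraries. Deviations of same-numbered SMP and Control libraries correlated at -0.31, 0.32 and -0.04. With 3 libraries a group, these values cannot decide whether same-numbered libraries share more than a number. With 3 libraries a group, single libraries decide many calls, and enzymes at a few fragments could not be compared.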

Other observations

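Levels of the low enzymes varied within the Control group. In 17 of the 39 enzymes below a mean of 1 FPKM (43.6%), GALNT16, CHST3, B4GALT6 and FUT10 among them, Control replicate 2 was the highest and Control replicate 3 the lowest of the Control libraries. This is the order of the summed smooth muscle markers in those libraries, at 2793, 998 and 171 FPKM in Control replicates 2, 1 and 3. The same order held in 16.0% of all genes below that mean, in 11 of the 53 tested enzymes (20.8%) and in 17.7% of all tested genes. The order was looked for after the values were seen, and the part of smooth muscle in these levels was not tested. Among the low enzymes, also chosen after their values were seen, B3GALT2, an enzyme of galactose-capped type 1 chains, had 66, 77 and 18 fragments in SMP and 9, 10 and 2 in Control. GALNT5 had 27, 32 and 15 fragments in SMP and 3, 3 and 10 in Control. ST6GALNAC5, a ganglioside sialyltransferase, was at 0.730, 0.806 and 0.928 FPKM in SMP and at 0.484, 0.479 and 0.520 FPKM in Control. The groups did not overlap in any of these 3 genes, none of which was tested.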
